A study of Mus musculus with 3 samples.

Results

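Wnt7b-high tumour cells were chosen by their own measured counts in 3 mammary tumours, as the cells with at least 3 transcripts of the Wnt ligand gene Wnt7b. Cells with 3 or more transcripts of the Notch ligand gene Dll1, or with 10% or more of their transcripts from the collagen gene Col1a1, were left out. The rule found 43049 such cells among 1747403 kept cells, where a kept cell has 20 or more panel transcripts, measures at least 50 µm3 and does not exceed its section's median volume more than 3 times over. Tumour 1 held 29517 of them (4.76% of its kept cells), tumour 2 held 2807 (0.618%) and tumour 3 held 10725 (1.59%). They were set against kept cells that carried at least 1 transcript of the epithelial cadherin gene Cdh1 and none of Wnt7b (520099 cells), drawn 1 per Wnt7b-high cell from the same tumour with the same total count (nearest total where none was left). The matched cells were not held to the Dll1 and Col1a1 limits. The 95% exact (Clopper-Pearson) binomial intervals of the 3 shares, which cover counting error only, were 4.71 to 4.82%, 0.596 to 0.642% and 1.56 to 1.62%.

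All 3 tumours carried a single label, MMTV-PyMT WT, and the sources used here do not say what WT stands for. In this mouse model the polyoma middle T oncogene is driven by the mouse mammary tumour virus promoter, which is active mainly in mammary epithelium, and mammary carcinomas arise from it. One fixed and embedded section of each tumour was imaged by multiplexed in situ hybridization on the MERSCOPE platform, which counts single transcripts of a chosen gene panel within segmented cells. There was no untreated or tumour-free group, so every contrast lies within a tumour. The p-values weigh how alike the within-tumour differences were across these 3 tumours.

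Wnt7b encodes a secreted ligand that binds Frizzled receptors with their Lrp5 or Lrp6 coreceptors and can stabilise beta-catenin, which then acts with TCF and LEF factors on genes such as Axin2. Wnt ligands act over short distances, and feedback genes and secreted antagonists limit them. Jag1 encodes a membrane-bound ligand of the Notch receptors, whose activation in a neighbouring cell induces genes such as Hey1 and Hes1. Both pathways are known for their part in the growth and lineage choice of mammary epithelium.

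The kept cells carried medians of 98, 106 and 94 panel transcripts in tumours 1, 2 and 3, and blank codes, to which no gene was assigned, took 0.481 to 0.503% of decoded transcripts. The tables used here hold 258 genes, of which 134 had more transcripts than the highest blank code in every tumour and are called above background here. No cell identifier was shared between sections.

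Wnt7b itself, which chose the cells, averaged 4.06, 3.86 and 3.95 transcripts per Wnt7b-high cell in tumours 1, 2 and 3, with a median of 3 in each. Just inside the threshold, 14830, 1671 and 5974 cells carried exactly 3 transcripts, while 34605, 5680 and 17511 cells that met the other limits carried 2. At least 5 transcripts were found in 7679, 553 and 2385 cells, and the highest count in a cell was 20, 18 and 21. Wnt7b-high cells held 39.7, 15.5 and 25.1% of all Wnt7b transcripts of kept cells, so most Wnt7b transcripts lay in cells below the threshold. The Dll1 limit removed 211, 715 and 1146 cells with at least 3 Wnt7b transcripts and the Col1a1 limit 1085, 106 and 200.

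The epithelial label was checked against the markers on the panel. Cdh1, which the rule did not require of Wnt7b-high cells, was present in 67.4, 71.5 and 62.5% of them. Over all kept cells it was present in 294862 of 619770, 189144 of 453995 and 213887 of 673638. Wnt7b-high cells also had higher median totals (150, 209 and 223, against 98, 106 and 94), and the part of these totals in the Cdh1 shares was not tested. The other epithelial markers Cldn4, Gata3 and Sox9 together made up 108, 109 and 102 per 1000 transcripts in Wnt7b-high cells, against 112, 120 and 95.9 in matched cells, so their summed level was similar in size. Within this sum Cldn4 was higher and Gata3 lower in 3 of 3 tumours. Cells gated by other lineages' genes held lower shares of cells with at least 3 Wnt7b transcripts in 3 of 3 tumours. The share was 7.005, 1.36 and 3.54% of Cdh1-positive cells, against 1.02, 0.205 and 0.563% of cells with at least 3 transcripts of the endothelial genes Pecam1 and Cdh5 in tumours 1, 2 and 3. It was 2.12, 0.533 and 1.01% of cells with at least 3 transcripts of the macrophage genes Adgre1 and Cx3cr1. Median totals were 124, 150 and 139 transcripts in Cdh1-positive cells, 137, 155 and 141 in the endothelial gate and 123, 145 and 124 in the macrophage gate. These gates can share cells with the epithelial one, and transcripts of a neighbour can fall inside a cell's outline.

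Wnt7b-high cells lay in patches. In squares of 300 µm with at least 100 kept cells, the highest share of Wnt7b-high cells was 34.4, 6.19 and 15.2% in tumours 1, 2 and 3, against medians of 1.46, 0.293 and 0.542%. No Wnt7b-high cell was found in 41 of 573, 231 of 822 and 203 of 894 squares. The tenth of squares with the highest share held 50.5, 40.5 and 46.1% of the Wnt7b-high cells and 12.4, 10.6 and 10.5% of all kept cells.

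**Figure D1:**
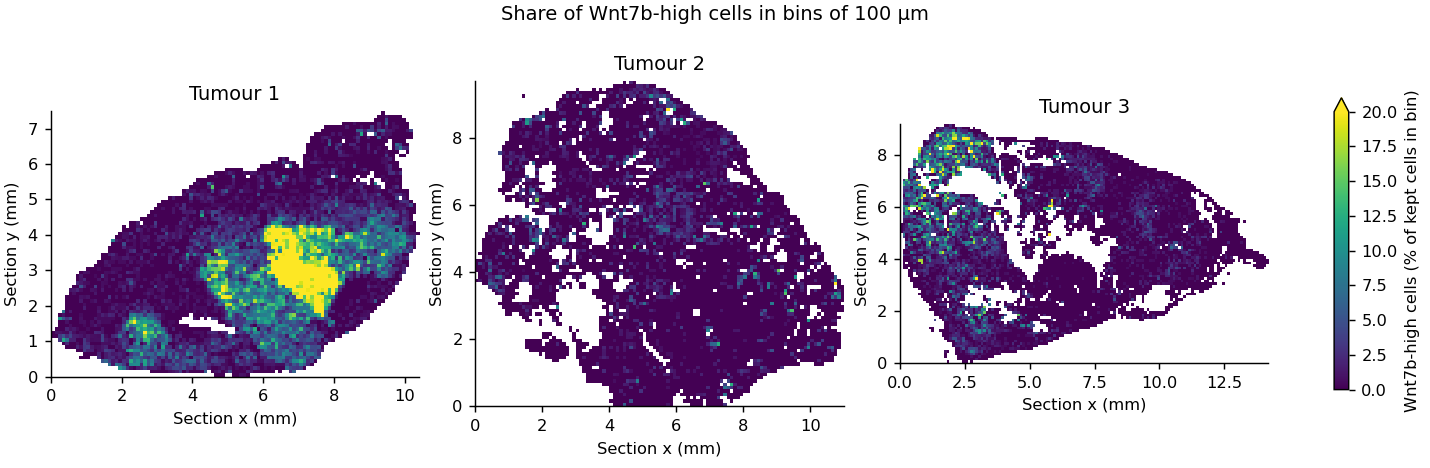
Maps of the 3 sections in bins of 100 µm holding at least 20 kept cells, with both axes in mm and the colour giving Wnt7b-high cells as a percentage of the kept cells of a bin (values above the scale take its top colour). Tumour 1, with 4.76% Wnt7b-high cells in all, shows 1 large dense area and a smaller one, tumour 3 a dense area at one end, and tumour 2, with 0.618%, scattered small spots.

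The neighbourhood repeated this pattern at the scale of single cells, and it is a description, since Wnt7b chose the cells. Of the kept cells within 25 µm, 17.1, 4.79 and 9.61% were Wnt7b-high around Wnt7b-high cells of tumours 1, 2 and 3, against 2.62, 0.602 and 2.08% around matched cells. At least 1 such neighbour was present for 88.3, 41 and 69.0% of Wnt7b-high cells, against 31.9, 8.30 and 26% of matched cells. With both taken from the same 300 µm squares, the shares of neighbours were 13.3, 4.70 and 9.14%, against 9.69, 1.35 and 3.78%, higher around Wnt7b-high cells in 3 of 3 tumours.

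Wnt7b-high cells lay farther from endothelial cells than matched cells did in 3 of 3 tumours. The median distance to the nearest cell of the endothelial gate was 44.3, 54.8 and 77.9 µm for Wnt7b-high cells of tumours 1, 2 and 3, against 35.2, 49.2 and 63.4 µm for matched cells. The difference averaged 9.77 ± 4.46 µm (SD, n = 3), was positive in 3 of 3 tumours and gave an exact two-sided sign-flip permutation p of 0.25, the smallest this test can give with 3 tumours. To the nearest cell of the macrophage gate the medians were 38.7, 51.2 and 98.3 µm, against 28.7, 43.4 and 92.7 µm, again farther in 3 of 3 tumours (exact permutation p = 0.25, n = 3). Within the same squares the endothelial difference shrank to 0.442 µm in tumour 1 and was 6.28 and 13.1 µm in tumours 2 and 3. The macrophage difference there was -0.0389, 2.38 and 8.24 µm.

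Distance to stroma and cell size had no common direction over whole sections. The nearest stromal cell, with 10% or more of its transcripts from Col1a1, lay at a median of 23.1, 31.1 and 52.2 µm from Wnt7b-high cells, against 20.9, 32.6 and 35.8 µm from matched cells, farther in tumours 1 and 3 and nearer in tumour 2 (exact permutation p = 0.5, n = 3). Median volumes were 729, 856 and 795 µm3 in Wnt7b-high cells, against 692, 886 and 926 µm3 in matched cells. The difference was positive in tumour 1 only and averaged -40.9 ± 84.8 µm3 (SD, n = 3; exact permutation p = 0.75). Within the same squares the volume difference was -14.0, -16.0 and -52.8 µm3 in tumours 1, 2 and 3, negative in each (exact permutation p = 0.25, n = 3). Median solidity, the area of a cell over that of its convex hull, averaged 0.986 in Wnt7b-high cells and 0.986 in matched cells over whole sections (exact permutation p = 1, n = 3). The stromal distance differed within squares by -0.0621, 5.74 and 12.9 µm (exact permutation p = 0.5, n = 3).

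Across the other panel genes, counts were summed per tumour and cell group and compared in edgeR with the tumour as a block. The 4 genes the rule used (Wnt7b, Dll1, Col1a1 and Cdh1) were left out, and all 254 others were tested. In Wnt7b-high cells 20 genes were higher (7.87% of those tested) and 9 were lower (3.54%) at an adjusted p under 0.05, or 11.4% in all, while DESeq2 called 32 higher (12.6%) and 35 lower (13.8%). Of the 20 and 9 that edgeR called, 14 and 8 were above background. Levels are given as counts per 1000 transcripts of the 254 genes, scaled by the TMM factors, and fold changes are on the log2 scale with their standard error (n = 3 tumours). Sums over marker lists, blank levels and levels by Wnt7b count are not scaled by these factors. Leaving out 1 tumour at a time, the counts were lowest without tumour 2, the one with the fewest Wnt7b-high cells. Without it 2 genes were higher and 2 lower, without tumour 1 the counts were 27 and 21, and without tumour 3 they were 12 and 11. Of the 21 genes that passed and that are described one by one here, 2 still passed without tumour 2 (Pecam1 and Krt17), where the highest adjusted p among the 21 was 0.320. Of the same genes 20 passed without tumour 1 and 14 without tumour 3, and none changed sign. The 6 higher genes and the 1 lower gene that were not above background were Gzmk, Ly6c1, Ifna2, Rspo1, Sox11 and Tgfb2, and Thy1. Of the 27 blank codes, fitted in the same way, 2 passed as higher and 0 as lower. That higher share is close to the 7.87% of genes that were higher. Log2 values of the blank codes ran from -0.77 to 0.77, with a median of 0.14. Without TMM scaling the median gene stood at -0.14, against 0.01 with it, and 0 genes were higher and 6 lower, with 70 genes at an unadjusted p under 0.05 in edgeR.

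Other Wnt pathway genes mostly did not pass the test. Of 8 ligands and ligand-processing genes tested, 1 was higher and none lower (median log2 0.37, against 0.01 over all genes). The one that passed was the R-spondin gene Rspo1, which is not above background. Wnt5b, which encodes a ligand mostly linked to beta-catenin-independent signalling, stood at 22.4, 17.8 and 12.9 per 1000 in Wnt7b-high cells of tumours 1, 2 and 3, against 11.5, 9.90 and 12.7 in matched cells (log2 0.61 ± 0.22, edgeR adjusted p = 0.120). It was higher in tumours 1 and 2 and nearly level in tumour 3, and it passed in edgeR without tumour 3 (log2 0.92, adjusted p = 0.0173). Its relative Wnt5a stood at 1.84, 2.43 and 1.08 in Wnt7b-high cells, against 2.74, 3.47 and 1.97 in matched cells, lower in 3 of 3 tumours (log2 -0.65 ± 0.19, edgeR adjusted p = 0.0713). When both cell groups came from the same 300 µm squares, Wnt5a passed the test (log2 -0.49 ± 0.13, edgeR adjusted p = 0.0335), as it did over whole sections without tumour 1 (log2 -0.73, adjusted p = 0.0422). Wnt6, which is not above background, passed as higher there (log2 0.39 ± 0.10, edgeR adjusted p = 0.0316). Porcn, whose product attaches the lipid that Wnt ligands need, had a log2 value of -0.14.

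No Wnt receptor passed in either direction (0 of 7 tested, median log2 0.14). The Frizzled genes Fzd1 and Fzd2 had log2 values of 0.27 and -0.12, the coreceptor genes Lrp5 and Lrp6 -0.14 and -0.23, and the R-spondin receptor gene Lgr4 0.26. Lrp5 stood at 31.8, 22.3 and 20.9 per 1000 in Wnt7b-high cells and 28.6, 26 and 26.6 in matched cells. Adjusted p-values of these 5 genes in edgeR ran from 0.363 to 0.736.

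No feedback or target gene of the pathway passed (0 of 8 tested in each direction, median log2 -0.13). Axin2, the usual readout of beta-catenin activity, stood at 0.935, 0.386 and 0.438 per 1000 in Wnt7b-high cells of tumours 1, 2 and 3, against 0.716, 0.382 and 1.84 in matched cells (log2 -0.54 ± 0.46, edgeR adjusted p = 0.479). The tumours differed, with a value above that of matched cells in tumour 1, the same level in tumour 2 and a far lower one in tumour 3. In Wnt7b-high cells of tumours 2 and 3 the highest blank code stood at 0.384 and 0.376, without TMM scaling. Axin2 lay near that level there, and in matched cells of tumour 2 (0.382, against 0.383 for the highest blank code). These Axin2 levels are therefore close to background. Matched inside the squares, Axin2 had a log2 value of -0.04. Rnf43, which encodes a ubiquitin ligase that removes Frizzled receptors, stood at 2.92, 2.06 and 2.24, against 3.01, 2.99 and 3.96, and the cyclin D1 gene Ccnd1 at 15.03, 13.6 and 16.2, against 17.8, 20.4 and 20.2 in matched cells. Both were lower in 3 of 3 tumours without passing (edgeR adjusted p = 0.204 and 0.148). Rnf43 passed in edgeR without tumour 1 (log2 -0.72, adjusted p = 0.0384), and DESeq2 called both (log2 -0.50, adjusted p = 0.0359 for Rnf43 and log2 -0.42, adjusted p = 0.00422 for Ccnd1). Znrf3, a relative of Rnf43, and the adhesion gene Cd44 had log2 values of -0.15 and 0.02.

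The secreted antagonists were 0 of 5 in each direction (median log2 -0.19). Wif1, which encodes a protein that binds Wnt ligands, stood at 3.59, 0.506 and 0.399 per 1000 in Wnt7b-high cells, against 1.74, 0.589 and 1.07 in matched cells of tumours 1, 2 and 3. It was higher in tumour 1 and lower in tumour 3 (edgeR adjusted p = 0.827). The Frizzled-related genes Sfrp1 and Sfrp2 had log2 values of 0.12 and -0.30, and Dkk3, related to the Dickkopf antagonists, -0.42. Inside the squares Dkk3 passed as lower (log2 -0.61 ± 0.12, edgeR adjusted p = 0.0118). Of the TCF and LEF factors none of 4 passed (median log2 0.18), with Tcf7l1 at 0.41 and Tcf7l2 at -0.05.

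**Figure D2:**
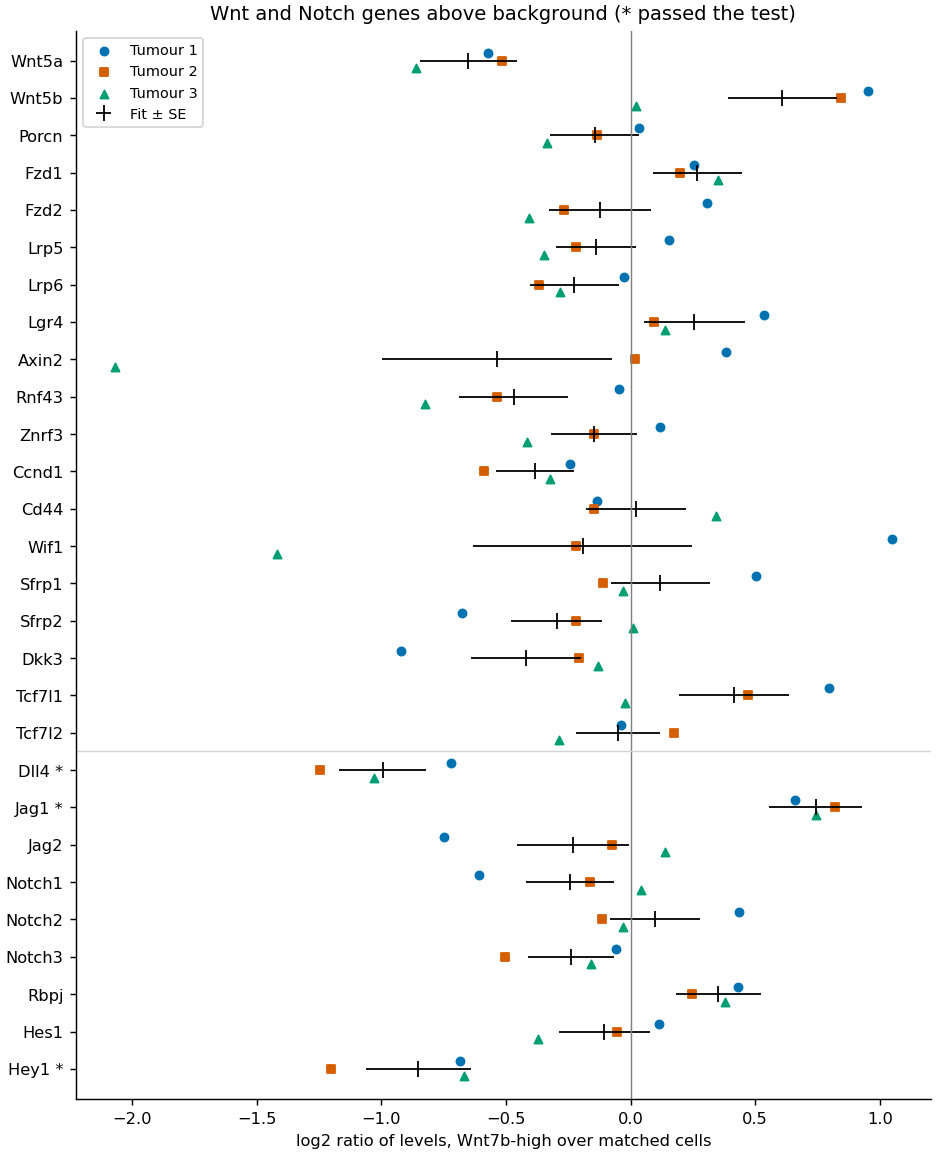
Wnt genes (top) and Notch genes (bottom) above background, with the log2 ratio of levels in Wnt7b-high over matched cells on the x axis, 1 point per tumour, and the fitted value with its standard error in black. Jag1 lies above 0 and Dll4 and Hey1 below 0 in all 3 tumours and passed the test, while Axin2 and Wif1 spread to both sides.

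The Notch ligands Jag1 and Dll4 moved in opposite directions. Jag1, named with Wnt7b as a marker of these cells from earlier results of the same data, is therefore no independent test of them. Its level was 3.66, 1.96 and 3.33 per 1000 in Wnt7b-high cells of tumours 1, 2 and 3, against 2.31, 1.11 and 1.99 in matched cells. It was higher in each tumour, although the groups overlapped across tumours (log2 0.74 ± 0.19, edgeR adjusted p = 0.0483). At least 1 Jag1 transcript was found in 36.7, 24.6 and 35.3% of Wnt7b-high cells and 27.7, 18.95 and 27.8% of matched cells. Within the same squares the difference no longer passed (log2 0.34 ± 0.13, edgeR adjusted p = 0.0898), nor did it with both groups held to the same limits on Cdh1, Dll1 and Col1a1 (log2 0.56, adjusted p = 0.128). It passed under 6 of 19 other settings, with log2 values from 0.20 to 1.05.

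Dll4, a Notch ligand best known from endothelial tip cells, stood at 0.396, 0.418 and 0.418 per 1000 in Wnt7b-high cells, against 0.653, 0.990 and 0.852 in matched cells, with no overlap between the groups (log2 -0.99 ± 0.17, edgeR adjusted p = 0.0195). In Wnt7b-high cells these Dll4 levels lay close to that of the highest blank code (0.392, 0.384 and 0.376, without TMM scaling). The Notch target gene Hey1 stood at 1.27, 1.54 and 0.899, against 2.04, 3.55 and 1.43 in matched cells (log2 -0.85 ± 0.21, edgeR adjusted p = 0.0468), and it was lower in 3 of 3 tumours. Both stayed lower within the same squares, at log2 -0.77 ± 0.12 (edgeR adjusted p = 0.00894) and -0.66 ± 0.14 (0.0166). The endothelial genes Pecam1 and Cdh5 were lower beside them, and the part of endothelial transcripts in these results was not tested. Jag2 had a log2 value of -0.23. Of the 6 receptors and effectors 1 was lower, Hey1, and none was higher (median log2 -0.17), with the receptors Notch1, Notch2 and Notch3 at -0.24, 0.10 and -0.24, their nuclear partner Rbpj at 0.35 and the target Hes1 at -0.11.

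Outside the Wnt and Notch lists, the 12 genes above background with the largest positive fold changes among those that passed were Tnc, Krt17, Slpi, Krt7, S100a6, Pdgfa, Cldn4, Fn1, Id1, Actn1, Tead1 and Tgif1. Slpi, which encodes a secreted inhibitor of leukocyte proteases, stood at 7.13, 8.04 and 5.56 per 1000 in Wnt7b-high cells of tumours 1, 2 and 3, against 1.64, 3.04 and 3.05 in matched cells (log2 1.46 ± 0.27, edgeR adjusted p = 0.0201). Every tumour's Wnt7b-high value lay above all matched values, and tumour 1 had the largest log2 ratio (2.12). Slpi transcripts were present in 40.3, 54.5 and 48.5% of Wnt7b-high cells and 16.5, 30.4 and 34.8% of matched cells. Jag1 and Slpi together were present in 15.3, 12.9 and 17.5% of Wnt7b-high cells and 5.86, 6.88 and 10.8% of matched cells. Within the same squares Slpi still passed, at log2 0.52 ± 0.13 (edgeR adjusted p = 0.0314), and its log2 ratio in tumour 1 was 0.23.

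The matrix glycoprotein gene Tnc (tenascin-C) stood at 4.27, 12.9 and 9.72 per 1000 in Wnt7b-high cells, against 2.72, 2.74 and 3.12 in matched cells (log2 1.51 ± 0.31, edgeR adjusted p = 0.0302). Matched levels were alike in the 3 tumours, and the groups did not overlap. Fn1, which encodes the matrix protein fibronectin, stood at 6.21, 3.21 and 37.1, against 3.89, 1.85 and 11.3 in matched cells (log2 1.06 ± 0.24, edgeR adjusted p = 0.0381). Its levels in tumour 3 were far above those in the others in both groups. Inside the squares Tnc passed (log2 1.17 ± 0.22, edgeR adjusted p = 0.0118) and Fn1 did not (log2 0.47 ± 0.21, 0.143). Of the 10 matricellular genes and proteases, Tnc alone passed over whole sections (1 higher, none lower, median log2 0.01). Inside the squares 3 of them were lower, the matrix gene Sparc (log2 -0.49 ± 0.10) and the metalloprotease genes Mmp2 (-0.40 ± 0.09) and Mmp3 (-0.32 ± 0.10), with edgeR adjusted p = 0.0166, 0.0204 and 0.0453.

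The keratin gene Krt17, known from injured and growing epithelia, stood at 1.59, 3.19 and 16.4 per 1000 in Wnt7b-high cells, against 0.773, 1.23 and 4.16 in matched cells (log2 1.46 ± 0.23, edgeR adjusted p = 0.0155). Krt7, a keratin of simple epithelia, stood at 1.66, 1.97 and 3.19, against 0.783, 0.831 and 1.27 in matched cells (log2 1.22 ± 0.19, edgeR adjusted p = 0.0155). Both were higher in each tumour, and Krt7 without overlap. The basal keratin gene Krt5 stood at 3.50, 3.50 and 1.34, against 8.77, 3.03 and 3.74 in matched cells (log2 -0.88 ± 0.35, edgeR adjusted p = 0.135), and of 8 basal lineage genes only Krt17 passed over whole sections (1 higher, none lower, median log2 -0.28). Inside the squares Krt17 was higher and 3 of the 8 were lower, Krt5 (log2 -0.50 ± 0.13), Il17b (-0.41 ± 0.10) and Mylk (-0.53 ± 0.15), with edgeR adjusted p = 0.0344, 0.0268 and 0.0403. The cells that carried both Krt17 and Fn1 made up 6.34, 6.95 and 47.4% of Wnt7b-high cells and 3.49, 1.92 and 22.5% of matched cells. Cldn4, which encodes a tight junction claudin, stood at 23.7, 27.8 and 55.3, against 17.2, 8.65 and 26.1 in matched cells (log2 1.08 ± 0.24, edgeR adjusted p = 0.0381), higher in 3 of 3 tumours.

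S100a6, which encodes a calcium-binding protein, stood at 5.64, 8.60 and 11.1 per 1000 in Wnt7b-high cells, against 3.17, 3.196 and 4.30 in matched cells (log2 1.21 ± 0.20, edgeR adjusted p = 0.0155). Pdgfa, a ligand of the platelet-derived growth factor receptors, stood at 3.59, 3.43 and 3.94, against 1.78, 1.52 and 1.71 in matched cells (log2 1.13 ± 0.19, edgeR adjusted p = 0.0155). The groups did not overlap for either gene, and the 3 tumours gave nearly the same Pdgfa ratio. Id1, a target of bone morphogenetic protein signalling that restrains differentiation factors, stood at 1.93, 1.15 and 1.81, against 0.759, 0.637 and 1.09 in matched cells (log2 0.98 ± 0.21, edgeR adjusted p = 0.0344). Of the 12 genes of the TGF-beta pathway list, Id1 and Tgfb2 were higher and none was lower (median log2 0.02), and Tgfb2 is not above background.

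The remaining 3 of the 12 had smaller fold changes. The actin cross-linker gene Actn1 had a log2 value of 0.79 ± 0.18 (edgeR adjusted p = 0.0381). Tead1, whose product is a DNA-binding partner of the Hippo effectors Yap and Taz, had 0.75 ± 0.18 (adjusted p = 0.0468) and was the only one of 4 Hippo genes that passed (median log2 -0.01). Tgif1, which encodes a repressor of Smad-dependent transcription, had 0.69 ± 0.17 (adjusted p = 0.0468). The filamin gene Flna, outside the rule for naming genes and mentioned after its values were seen, was the other gene above background that was higher (log2 0.59 ± 0.14, edgeR adjusted p = 0.0468).

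**Figure D3:**
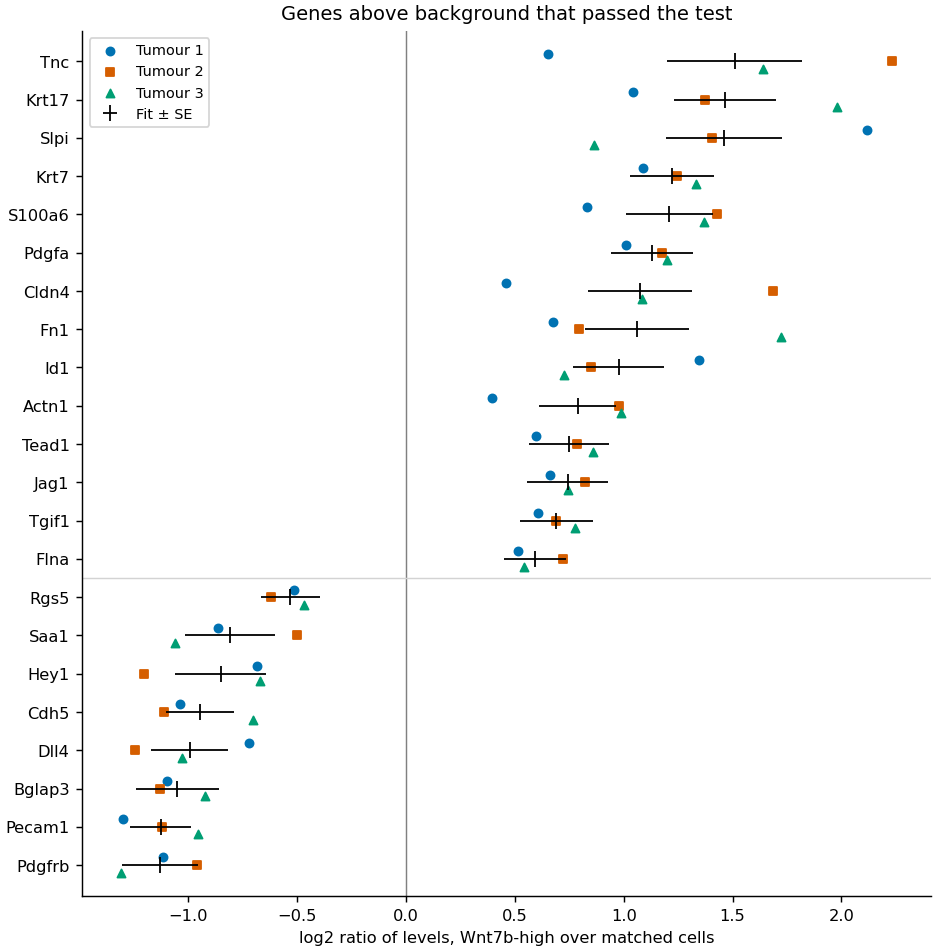
Genes above background that passed the test, higher ones over lower ones, with the log2 ratio of levels in Wnt7b-high over matched cells on the x axis, 1 point per tumour, and the fitted value with its standard error in black. All points of a gene lie on 1 side of 0, and Tnc, Slpi, Cldn4 and Fn1 spread most between tumours.

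Genes of blood vessels and their support cells were lower in Wnt7b-high cells. Pecam1 stood at 0.265, 0.269 and 0.213 per 1000 in Wnt7b-high cells of tumours 1, 2 and 3, against 0.652, 0.584 and 0.412 in matched cells (log2 -1.13 ± 0.14, edgeR adjusted p = 0.0155), and Cdh5 at 0.369, 0.285 and 0.337, against 0.757, 0.615 and 0.549 (log2 -0.95 ± 0.16, adjusted p = 0.0155). Both are adhesion genes of endothelium, and their levels in Wnt7b-high cells lay below that of the highest blank code (0.392, 0.384 and 0.376). The pericyte genes Pdgfrb and Rgs5 were lower as well, at log2 -1.13 ± 0.17 and -0.53 ± 0.14 (edgeR adjusted p = 0.0155 and 0.0485). Rgs5 passed in only 4 of 18 other settings. The summed level of both endothelial markers was 0.635, 0.556 and 0.470, against 1.61, 1.26 and 0.929 in matched cells. The third pericyte or smooth muscle marker, Notch3, did not pass and stood at 8.58, 9.60 and 9.57, against 8.94, 13.6 and 10.7. Notch3 made up most of the list's sum, which was 9.56, 10.5 and 8.77, against 12.2, 15.9 and 11.6. The list sums and the blank level lack the TMM scaling of the single genes, so a single gene can exceed its list's sum. The 5 macrophage markers summed to 5.17, 8.33 and 6.27, against 5.72, 6.17 and 6.73, with none passing, and the 7 fibroblast markers to 6.999, 7.85 and 3.45, against 9.73, 6.93 and 5.23, with Thy1 lower and not above background.

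Fn1, Tnc and Pdgfa are known to be expressed in stromal or endothelial cells as well, and the part of such transcripts in the higher genes was not tested over all cells. In cells without a transcript of any of the 12 fibroblast, pericyte, endothelial and macrophage markers above background, 4 of 211 genes tested were higher and 0 lower, with 38 at an unadjusted p under 0.05 in edgeR (1660, 68 and 501 Wnt7b-high cells). The 12 include Notch3 (673119, 774908 and 835538 transcripts in kept cells) and Cd14 (222789, 290088 and 366992), so this limit also selects for cells without these common transcripts. The Wnt7b-high cells that remained had median totals of 92, 120 and 132, against 150, 209 and 223 over all Wnt7b-high cells. The 4 were Tnc (log2 2.58, adjusted p = 0.0274), Fn1 (2.48, 0.0359), Krt17 (1.79, 0.0274) and Slpi (1.75, 0.0401). With both groups held to the same limits, 8 genes were higher (3.15%) and 8 lower (3.15%), which is 6.3% in all. Pecam1 then had log2 -0.96 (edgeR adjusted p = 0.0325), Cdh5 -0.72 (0.0572) Pdgfrb -0.68 (0.0572) and Rgs5 -0.37 (0.199). With equal limits inside the squares Rgs5 had log2 -0.0749 (edgeR adjusted p = 0.496).

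The remaining lower genes of the named set were Bglap3 and Saa1. Bglap3, of the osteocalcin gene cluster, stood at 1.02, 2.63 and 0.740 per 1000 in Wnt7b-high cells, against 2.17, 5.75 and 1.40 in matched cells (log2 -1.05 ± 0.19, edgeR adjusted p = 0.0201). Saa1, which encodes an acute-phase protein, stood at 2.25, 2.43 and 0.771, against 4.09, 3.44 and 1.61 in matched cells (log2 -0.81 ± 0.20, edgeR adjusted p = 0.0483). Both were lower in 3 of 3 tumours. Within the same squares Bglap3 missed the threshold (log2 -0.31 ± 0.11, edgeR adjusted p = 0.0745) and Saa1 passed (-0.55 ± 0.10, 0.0118).

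Among the other lists, proliferation and luminal regulators did not pass over whole sections. The 3 cell cycle genes were 0 in each direction (median log2 -0.49). Mki67, the Ki-67 gene of dividing cells, stood at 7.41, 3.11 and 2.65 per 1000 in Wnt7b-high cells, against 10.4, 5.23 and 7.67 in matched cells, lower in 3 of 3 tumours (log2 -0.92 ± 0.24, edgeR adjusted p = 0.0520). Cells with both Mki67 and Top2a made up 19.4, 11.4 and 10.04% of Wnt7b-high cells and 23.02, 16.9 and 26.4% of matched cells. Gata3, a regulator of luminal fate, stood at 29.7, 37.5 and 19.8, against 39.01, 52.4 and 28.6 in matched cells, also lower in 3 of 3 tumours (log2 -0.47 ± 0.14, edgeR adjusted p = 0.0672). All 8 AP-1 and early response genes had positive values, with a median log2 of 0.38, but none passed. Junb, a component of AP-1, had log2 0.52 ± 0.16 (edgeR adjusted p = 0.0735). No gene passed among 10 interferon genes (median log2 -0.02) or 4 basement membrane genes (0.41) or 5 progenitor genes (0.43). Single genes passed among 9 factors of epithelial-mesenchymal transition (Fn1 higher, median log2 -0.05), 5 luminal genes (Sox11 higher, 0.04) and 16 NF-kB and inflammatory genes (Saa1 lower, 0.07).

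Choosing matched cells from the same 300 µm squares compared neighbours of 1 area, and 20482, 2699 and 9779 Wnt7b-high cells of tumours 1, 2 and 3 found a partner. In this comparison 25 genes were higher (9.84%) and 32 lower (12.6%) in edgeR, or 22.4% in all. Of the 20 genes higher over whole sections, 13 were higher here (65% of those 20 and 52% of the 25), and 8 of the 9 lower genes were lower (88.9% of the 9 and 25% of the 32). Mki67 and Top2a passed as lower (log2 -0.80 ± 0.15 and -0.54 ± 0.14, edgeR adjusted p = 0.0117 and 0.0295). Among the AP-1 and early response genes Fosb, Klf4 and Atf3 were higher (log2 0.88 ± 0.17, 0.66 ± 0.17 and 0.41 ± 0.12; edgeR adjusted p = 0.0118, 0.0337 and 0.0403). Of the inflammatory genes, the inhibitors of NF-kB signalling Nfkbia and Tnfaip3 were higher (log2 0.52 ± 0.12 and 0.66 ± 0.12) and the acute-phase genes Saa1 and Saa2 lower (-0.55 ± 0.10 and -0.42 ± 0.12). The retinoic acid synthesis gene Aldh1a3, not above background in every tumour, had the second largest positive value (log2 1.21 ± 0.21, edgeR adjusted p = 0.0100). With both groups also held to the same limits on Cdh1, Dll1 and Col1a1, a setting chosen after seeing the data, 22 genes were higher (8.66%) and 21 lower (8.27%). Mki67 and Top2a were lower there too (log2 -0.88 and -0.61, edgeR adjusted p = 0.0324 and 0.0381). Fosb, Nfkbia, Tnfaip3, Saa1 and Aldh1a3 also passed, while Klf4, Atf3 and Saa2 did not (log2 0.63, 0.29 and -0.49, edgeR adjusted p = 0.0566, 0.127 and 0.0952).

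Levels were also followed over the number of Wnt7b transcripts in a cell, in kept cells within the Dll1 and Col1a1 limits and weighted to the same spread of totals. These values overlap with those that chose the cells and are a description. Slpi stood at 1.85, 3.25 and 3.09 per 1000 in cells without Wnt7b of tumours 1, 2 and 3, at 4.97, 7.39 and 4.57 with 2 transcripts and at 6.95, 8.73 and 4.87 with 4. With 7 or more transcripts Slpi stood at 9.43, 7.98 and 4.56, above its value at 4 in tumour 1 only. S100a6 stood at 3.45, 3.38 and 4.09 without Wnt7b, at 4.67, 5.60 and 7.08 with 2 transcripts and at 5.78, 8.40 and 9.82 with 4. Both genes were thus higher at 2 transcripts than at 0, below the threshold of 3, in each tumour. Tnc stood at 2.60, 2.41 and 2.69 without Wnt7b and at 4.20, 27.9 and 13.9 with 7 or more transcripts, and it was steepest in tumour 2. Hey1 stood at 2.21, 3.61 and 1.29 without Wnt7b, 1.63, 2.31 and 0.9996 with 2 transcripts and 1.005, 1.11 and 0.584 with 7 or more, and Gata3 at 43.6, 53.2 and 26.8, 33.6, 44.7 and 20.6 and 27.3, 30.3 and 13.9 at those counts, both lower at each step named. Jag1 in tumour 1 was 2.72 without Wnt7b, 3.65 with 2 transcripts and 3.55 with 7 or more. In tumours 2 and 3 Jag1 reached 3.27 and 3.93 at 7 or more, where those bins held 160 and 678 cells.

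**Figure D4:**
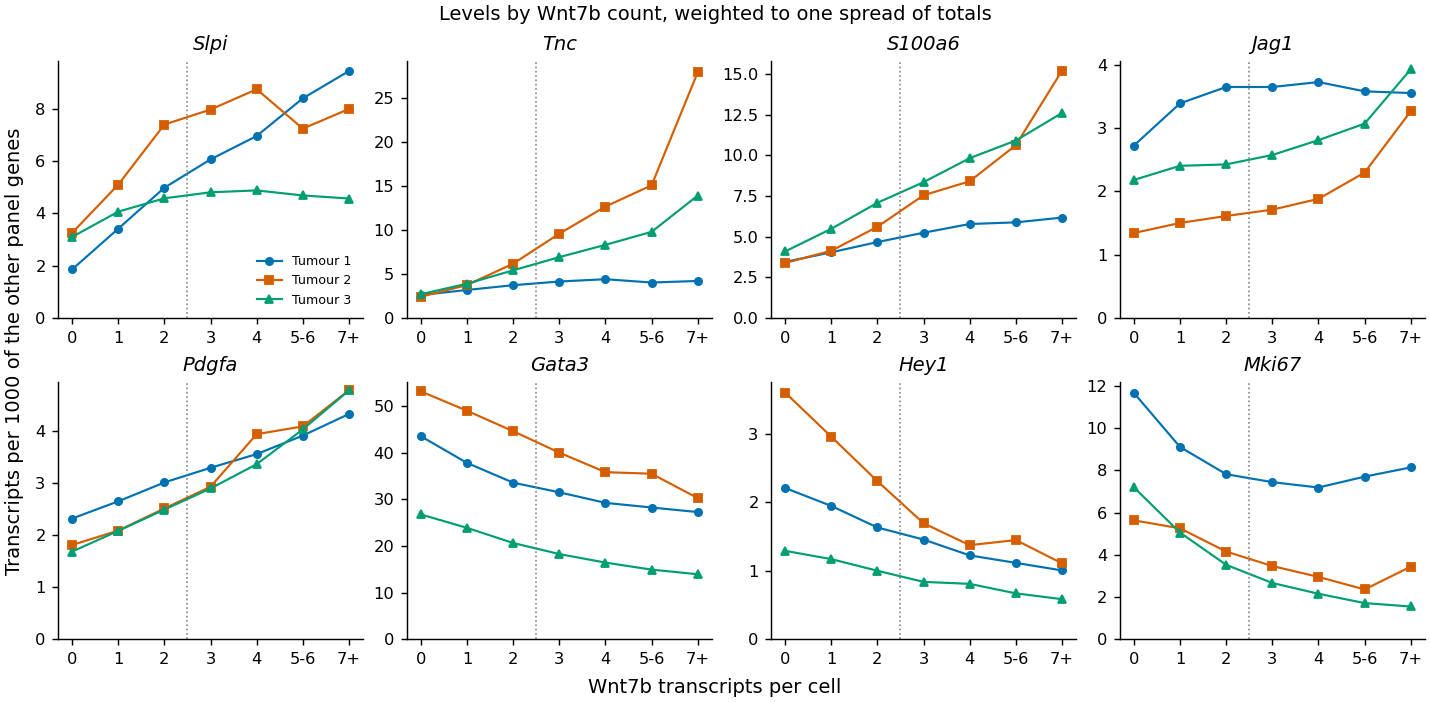
Levels of 8 genes (y axis, transcripts per 1000 of the 254 other genes) in kept cells by their number of Wnt7b transcripts (x axis), 1 line per tumour, with the threshold of 3 dotted. Slpi, Tnc, S100a6, Jag1 and Pdgfa are higher at 3 than at 0 Wnt7b transcripts in each tumour, and Gata3, Hey1 and Mki67 are lower.

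The second comparison asked whether Cdh1-positive cells without Wnt7b differed by their distance from Wnt7b-high cells. Cells with a Wnt7b-high centre within 25 µm (near) were matched on total to cells with none within 75 µm (far), which gave 45317, 12181 and 30983 pairs in tumours 1, 2 and 3. Taken over whole sections, 0 of 254 genes passed in edgeR (0.0% of those tested), with 21 at an unadjusted p under 0.05, while DESeq2 called 13 higher (5.12%) and 5 lower (1.97%), or 7.09% in all. Slpi stood at 3.13, 5.74 and 4.72 per 1000 in near cells, against 0.589, 2.29 and 1.91 in far cells (log2 1.68 ± 0.29, edgeR adjusted p = 0.288). Bglap3 stood at 1.69, 3.58 and 1.203 in near cells, against 3.16, 7.83 and 2.51 in far cells (log2 -1.03 ± 0.16, edgeR adjusted p = 0.288). Each lay on 1 side in 3 of 3 tumours. Axin2 was far lower near than far in tumour 3 alone, at 0.755, 0.427 and 0.518 in near cells, against 0.773, 0.382 and 6.32 in far cells. Without tumour 2, 5 genes were higher and 3 lower.

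Along the distance from Wnt7b-high cells, Slpi within 10 µm stood at 4.48, 6.36 and 4.54 per 1000 in tumours 1, 2 and 3, between 30 and 40 µm at 1.895, 4.48 and 3.36, and between 120 and 200 µm at 0.480, 2.31 and 1.94. It was lower in each farther bin named. Wnt5b stood at 21.1, 16.4 and 12.1 within 10 µm and 7.24, 10.6 and 11.8 between 120 and 200 µm, lower with distance in tumours 1 and 2. In tumour 3 Wnt5b stood at 15.2 between 40 and 60 µm, above both end bins. Axin2 in tumour 3 stood at 0.415 within 10 µm and 5.84 between 120 and 200 µm.

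Near and far cells of the same squares differed in more genes. With 12039, 8603 and 7939 pairs, 23 genes were higher (9.06%) and 5 lower (1.97%) in near cells. Of these 23, 14 (60.9%) were also among the 25 genes (9.84% of those tested) higher in Wnt7b-high cells within squares. Transcripts of a Wnt7b-high cell can fall inside a near cell's outline, and their part in these values was not tested. Slpi stood at 1.19, 5.19 and 4.03 per 1000 in near cells of tumours 1, 2 and 3, against 0.797, 3.52 and 2.65 in far cells (log2 0.58 ± 0.06, edgeR adjusted p = 0.00221). S100a6 stood at 4.89, 4.62 and 3.74 in near cells, against 2.62, 3.11 and 2.32 in far cells (log2 0.72 ± 0.07, edgeR adjusted p = 0.00235). Both were higher in 3 of 3 tumours, with nearly the same Slpi ratio in each, and for Slpi the tumours differed more from each other than near from far. Cldn4 had log2 0.55 ± 0.06 (edgeR adjusted p = 0.00256), and Thbs1, which encodes the matricellular protein thrombospondin 1, 0.39 ± 0.04 (0.00221). Of the AP-1 and early response genes Junb, Egr1 and Klf4 were higher (3 of 8, median log2 0.26, against 0.04 over all genes). Pecam1, Dll4 and Bglap3 were lower, at log2 -0.26, -0.39 and -0.23, beside Cd163 and Thy1, which are not above background. No member of the Wnt lists passed, Axin2 had log2 -0.12 ± 0.06 (edgeR adjusted p = 0.204) and Jag1 0.15 ± 0.06 (0.140). Krt17, Krt7 and Pdgfa were higher in near cells as well, at log2 0.76 ± 0.18, 0.38 ± 0.07 and 0.32 ± 0.06 (edgeR adjusted p = 0.0395, 0.0180 and 0.0180). The near and far cells come from the same pool as the matched cells of the first comparison, so the comparisons are not independent.

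**Figure D5:**
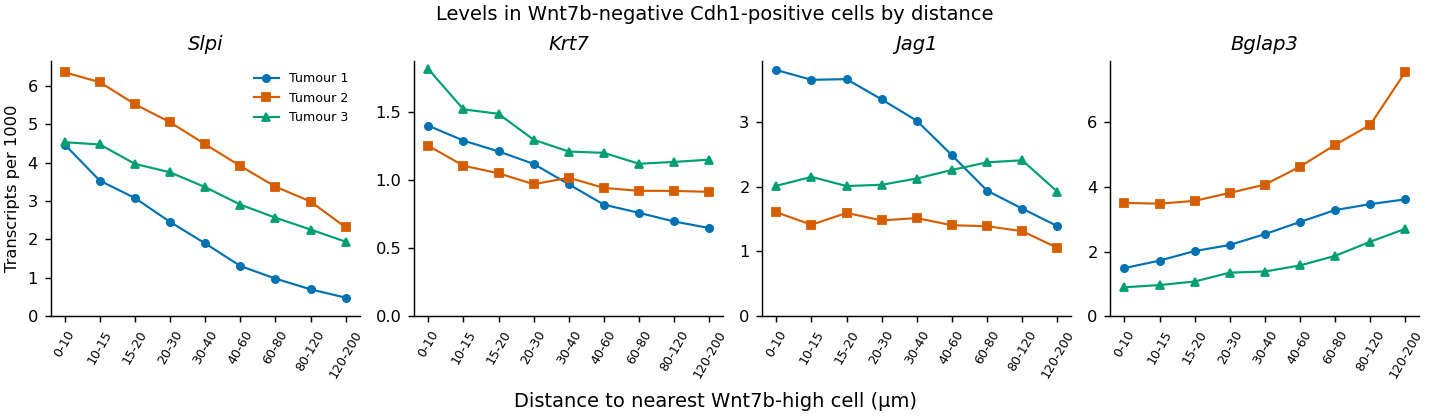
Levels of 4 genes (y axis, transcripts per 1000) in Cdh1-positive cells without Wnt7b by the distance to the nearest Wnt7b-high cell (x axis, µm), 1 line per tumour. Slpi is highest in the nearest bin, at 4.48, 6.36 and 4.54 in tumours 1, 2 and 3, Bglap3 is lower near than far, and Jag1 is lower with distance in tumour 1 (3.81 within 10 µm and 1.39 beyond 120 µm) but nearly level in tumour 3.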

How the data were processed

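The deposited tables hold, per the file headers, whole-number counts of decoded transcripts per segmented cell for 258 genes and 27 blank codes, with cell volume, centre and solidity (a fraction, deposited by the authors). The authors applied no scaling to these counts as far as the values show. The series' design text states a panel of 265 genes. Scanpy 1.9.3 is named in the submitters' processing notes without a role, and the sources used here name no decoding or segmentation software and no doublet step. No unit stands in the headers, and µm and µm3 were taken from the extent of the cells. No doublet caller was run, and the volume limit is the only guard.

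Each tumour is a replicate, and cells are not. The labels do not say whether the 3 tumours came from different mice. The tumour numbers pair the cell groups because both come from the same section. Counts were summed per tumour and group and tested with edgeR 4.0.16 (quasi-likelihood F-test, TMM, tumour block, Benjamini-Hochberg over 254 genes) in R 4.3.3, with filterByExpr, which removed none of the 254 in the main comparisons. Alternatives used DESeq2 1.42.0, other cell limits and matching within 300 µm squares. On simulated counts for 254 genes, the first comparison's test recovered 100% of genes changed by 1 or by 0.5 on the log2 scale. The second recovered 100% and 93.3%, and 2.58% and 1.55% of unchanged genes were called. The simulation gave each changed gene the same change in every tumour, with little noise between cell groups. It therefore checks the code and does not give the power of the tests in these tumours. Medians of volume and distance were tested by exact sign-flip permutation (Python 3.11.15, numpy 2.4.6, scipy 1.17.1). Total panel transcripts per section were 71492483, 60759690 and 78051090 over all listed cells, before the limits on counts and volume. The genes described singly are the Wnt and Notch genes above background and, of the others that passed above background with 1 sign in 3 of 3 tumours, the 12 with the largest positive and the 12 with the largest negative fold change. The cells and gene lists were chosen with earlier results of these data known.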

Additional observations from a re-analysis of the deposited data

How the results depend on the processing

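The 3 tumours, 1 section each, set the precision, and most single calls lie close to the threshold. The first comparison gave 20 higher and 9 lower genes. The higher count was 4 in cells free of stromal and macrophage markers, 8 with both groups held to the same limits, 7 at a Wnt7b minimum of 2, 7 at a minimum of 5, 12 when matched on totals without Wnt7b, 3 without matching, 32 with DESeq2, 0 with library size alone and 0 without the replicate block (edgeR, 70 and 24 at an unadjusted p under 0.05), and 2 to 27 when a tumour was left out. The lower count was 14 with another random seed, 0 in marker-free cells, 32 within squares, 5 without matching, 21 within squares with equal limits (an alternative chosen after seeing the data), 35 with DESeq2, 0 without the replicate block and 2 to 21 when a tumour was left out. The cause of these shifts was not tested, but marker-free cells are few and leaving out a tumour leaves 2. For near and far cells the counts were 23 and 5 within squares, 13 and 5 with DESeq2, and 0 to 5 and 0 to 3 when a tumour was left out. Over the 21 genes described singly that passed, 248 of 395 recomputed values stayed past the threshold, 147 did not and none changed sign. Of 25 that had not passed, 11 of 474 values passed and 23 changed sign, with none of these past the threshold. Leaving out 1 tumour at a time, the volume difference ran from -80.1 to 4.09 µm3 and was positive without tumour 3. In the same way log2 values ran from -0.38 to 0.038 for Fzd2, -1.13 to 0.23 for Axin2, -0.33 to 0.0054 for Znrf3, -0.12 to 0.071 for Cd44, -0.88 to 0.45 for Wif1, -0.20 to 0.084 for Tcf7l2, -0.26 to 0.046 for Hes1, -0.11 to 0.21 for Sfrp1 and -0.11 to 0.18 for Notch2. Sfrp1 and Notch2 turned without tumour 1 and the others without tumour 3. Cd44 was at -0.0057 with at least 40 transcripts per cell, -0.034 with equal limits, -0.087 at a Wnt7b minimum of 2, -0.062 unmatched, -0.014 with DESeq2 and -0.12 with library size alone. Sfrp1 was at -0.20 within squares, -0.20 with equal limits there and -0.025 with library size alone, where Notch2 was at -0.047 (-0.014 unmatched). Lgr4 was at -0.071 within squares with equal limits, Wif1 at 0.41 without the replicate block and Hes1 at 0.31 in marker-free cells.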
